A study of Homo sapiens with 6 samples.

Results

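The TRiC/CCT chaperonin was examined at the RNA level in MDA-MB-231 cells, through the 8 genes that encode its subunits: TCP1, CCT2, CCT3, CCT4, CCT5, CCT6A, CCT7 and CCT8. They were taken by symbol from the 23228 genes in the count tables, and all 8 had enough counts to be among the 12796 genes tested. MDA-MB-231 is a human triple negative breast cancer (TNBC) line. RNA-seq covered 3 replicates that stably carried a control non-targeted shRNA and 3 replicates that stably carried a PELP1 shRNA (PELP1-KD). Both groups were made with lentiviral particles, selected in puromycin and grown in RPMI with serum, and the PELP1-KD cells rest on a single shRNA. The control replicates 1, 2 and 3 had 17304864, 23083404 and 18004958 reads on genes, and the PELP1-KD replicates had 19186990, 20972223 and 23132102. The labels do not say that the replicates were separate cultures, so each p-value measures the spread between these samples, which may be technical. Control replicate 1 stood apart from the other controls, as chi-square over its degrees of freedom, taken over the genes tested, was 3.84 and 4.06 against them and 1.46 between them. PELP1-KD replicate 2 stood apart in its group likewise, at 2.75 and 2.71 against 1.51.

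TRiC is a barrel of stacked rings in the cytosol, and each ring holds a copy of every subunit in a fixed order. A newly made or unfolded protein enters the chamber, a lid formed by the subunits closes when ATP is used, and the protein folds inside. Actin and tubulin are its best known clients, and prefoldin and phosducin-like proteins work beside it. Because every subunit fills its own place in the ring, the question put to the data was whether the 8 RNAs moved together when PELP1, a coregulator of nuclear receptors and a factor of ribosome assembly, was knocked down.

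The knockdown itself was first read from PELP1. Its CPM (reads on the gene per unit of library size, scaled by edgeR's TMM factors, which take most genes as unchanged) were 57.2, 56.1 and 60.2 in control cells, against 28.6, 29.9 and 30.3 in PELP1-KD cells, which was a log2 fold change (log2FC) of -0.97 by edgeR's quasi-likelihood test (SE 0.055, edgeR adjusted p = 1.48e-11). The groups did not overlap, and a two-sided exact permutation test over the samples gave p = 0.1, the smallest that 3 against 3 allows. The receptor genes ESR1 and PGR, whose protein is lacking in TNBC, were at 0.0334 and 0.0916 CPM in control cells, under the 0.132 to 0.177 CPM to which the floor of 3 counts corresponded in those libraries. The epithelial cadherin gene CDH1 was at 0.0948 CPM and EPCAM at 9.46 CPM. VIM, CD44 and EGFR, known for their high level in this line, were at 2221, 1209 and 132 CPM in control cells. ERBB2, which encodes HER2, was not near 0 in control cells, at 113 CPM ± 3.42 (SD, n = 3). In PELP1-KD cells VIM, CD44 and EGFR were lower without overlap, at 1922, 828 and 111 CPM. Their log2FC was -0.21, -0.55 and -0.26 (edgeR adjusted p = 7.19e-06, 8.62e-13 and 1.07e-05). ERBB2, at 0.06 (adjusted p = 0.279), and EPCAM, at 0.03 (adjusted p = 0.849), did not pass.

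The subunits did not move as a block. CCT7 rose by 11.3% in PELP1-KD cells, CCT4 fell by 6.91%, CCT2 fell by 6.03%, CCT6A fell by 5.77%, and the other 4 did not pass the test. At an adjusted p-value below 0.05 (edgeR's quasi-likelihood test, Benjamini-Hochberg adjustment over all 12796 genes), 3 of the 8 subunits were lower and 1 was higher. Among all tested genes 24.2% were lower and 22.7% were higher by the same rule (46.9% in either direction), so these counts lie near the background and are not a result about the subunits as a class. No subunit had a log2FC beyond 1, the fold used by the study to call genes, which 3.24% of all tested genes passed together with the adjusted p-value, and DESeq2 also called 0 subunits beyond that fold. The log2FC of the subunits ran from -0.10 to 0.15 with a median of -0.04, beside a median of 0.0014 over all tested genes, whose lower and upper deciles were -0.35 and 0.41. When the libraries were scaled by their totals alone in place of TMM, 0 subunits were lower by edgeR (also 0 at an unadjusted p below 0.05) and 2 were higher, where DESeq2 with its own size factors had 2 lower and 1 higher. With totals alone their median log2FC was 0.0058, and the calls over all genes went from 3103 lower and 2904 higher to 2418 lower and 3817 higher. The plot of CPM by replicate shows how small these differences were beside the level of each gene.

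**Figure D1:**
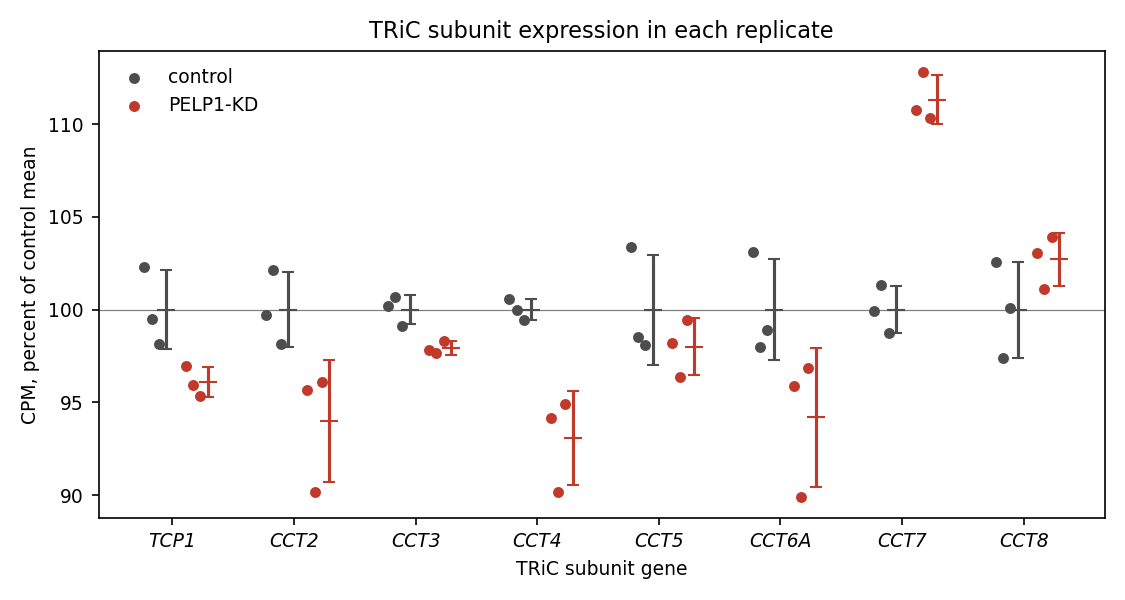
The CPM of each TRiC subunit (x axis) in every replicate, as a percent of its control mean (y axis, which does not start at 0), with control replicates in grey, PELP1-KD replicates in red, and bars for the group mean ± SD (n = 3). The PELP1-KD replicates of CCT7 lie above all its control replicates, those of CCT4, CCT2 and CCT6A lie below theirs, and those of CCT5 and CCT8 overlap theirs.

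The start regions of CCT7, which rose, and of CCT4 and CCT2, which fell, are shown as the members whose changes the comparison turns on, from 250 bases before to 50 bases after the RefSeq start, read 5′ to 3′ on the strand of the gene on GRCh38.p14, at chr2:73234058-73234357 (plus strand), chr2:61888607-61888906 (minus strand) and chr12:69585209-69585508 (plus strand). Capitals mark matches on either strand to CACGTG (the E-box bound by Myc and its relatives), GAANNTTC or TTCNNGAA (pairs of units of the heat shock element), CCAAT (the CCAAT box) and CCGGAAGT (a site of ETS factors).
CCT7: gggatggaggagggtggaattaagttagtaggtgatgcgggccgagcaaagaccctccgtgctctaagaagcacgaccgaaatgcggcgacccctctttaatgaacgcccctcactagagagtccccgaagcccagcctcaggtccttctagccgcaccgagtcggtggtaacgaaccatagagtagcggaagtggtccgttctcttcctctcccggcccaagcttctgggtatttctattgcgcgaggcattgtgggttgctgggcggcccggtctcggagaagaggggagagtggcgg
CCT4: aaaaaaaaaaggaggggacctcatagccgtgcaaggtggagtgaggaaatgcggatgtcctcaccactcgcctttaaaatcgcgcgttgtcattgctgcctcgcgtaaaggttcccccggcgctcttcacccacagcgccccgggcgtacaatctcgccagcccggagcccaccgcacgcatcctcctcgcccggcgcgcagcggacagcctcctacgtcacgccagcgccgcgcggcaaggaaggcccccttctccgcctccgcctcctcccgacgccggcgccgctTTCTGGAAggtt
CCT2: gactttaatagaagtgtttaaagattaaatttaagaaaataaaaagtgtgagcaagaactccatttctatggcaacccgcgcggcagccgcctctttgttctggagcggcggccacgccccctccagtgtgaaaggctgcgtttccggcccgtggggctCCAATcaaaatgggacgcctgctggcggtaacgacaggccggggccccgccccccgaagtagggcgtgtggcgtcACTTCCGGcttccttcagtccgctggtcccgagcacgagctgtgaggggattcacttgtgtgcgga

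The CCT7 window held none of these words. The CCT4 window held TTCNNGAA downstream of the start, found in 7.7% of the 35116 windows in the RefSeq table, and the other RefSeq window of CCT4, set on a start further upstream, ended before it. The CCT2 window held CCAAT (34.6% of windows) and CCGGAAGT (4.1%), and in these 3 windows no 2 matches overlapped. RefSeq gave 9 windows for 7 of the subunits, all but CCT6A. None of the 9 held CACGTG, which is in 7.3% of all windows, and CCAAT was found in windows of TCP1, CCT2, CCT3 and CCT8. GAANNTTC was found in the window of TCP1 and in the other window of CCT2, not shown, against 6.8% of all windows. Such matches describe letters in a window and say nothing of which factor was bound.

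CCT7, whose start region held none of the words, encodes the eta subunit. Its CPM was 822, 833 and 812 in control cells, against 911, 927 and 907 in PELP1-KD cells (replicates 1, 2 and 3 in this order, here and for each gene that follows). Every PELP1-KD replicate was above every control replicate, and the means of 822 ± 10.5 and 915 ± 10.8 (SD, n = 3) lay many SDs apart. The log2FC was 0.15 (SE 0.026, edgeR adjusted p = 4.62e-05). CCT7 was called higher under all 14 alternative settings, with a log2FC between 0.12 and 0.20.

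CCT4, the delta subunit, had the lowest log2FC of the 8. Its CPM was 815, 810.5 and 806 in control cells, against 763, 731 and 769 in PELP1-KD cells. The groups did not overlap, and PELP1-KD replicate 2 was the lowest of the 6. The log2FC was -0.10 (SE 0.027, edgeR adjusted p = 0.00372). Among the 14 alternatives this fall lost its call with library totals alone, at a log2FC of -0.05 (adjusted p = 0.102).

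CCT2, the beta subunit, had 512, 525 and 504 CPM in control cells, against 491, 463 and 493 CPM in PELP1-KD cells, without overlap. Its log2FC was -0.09 (SE 0.031, edgeR adjusted p = 0.0217). The fall lost its call without control replicate 2, at -0.07 (adjusted p = 0.117), without PELP1-KD replicate 2, at -0.07 (adjusted p = 0.0797), and with library totals, at -0.04 (adjusted p = 0.289).

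CCT6A, the zeta subunit, had 759, 722 and 729 CPM in control cells, against 706, 662 and 713 CPM in PELP1-KD cells. These groups did not overlap either, and the lowest value was again that of PELP1-KD replicate 2. Its log2FC was -0.09 (SE 0.031, edgeR adjusted p = 0.0287). Without PELP1-KD replicate 2 the call was lost, at -0.06 (adjusted p = 0.105), as it was in DESeq2, at -0.08 (adjusted p = 0.0584), with library totals, at -0.04 (adjusted p = 0.34), and after adjustment for GC content, at -0.04 (adjusted p = 0.138). Without PELP1-KD replicate 2, CCT4 was the only subunit called lower, so that the count of 3 falls became 1. Without control replicate 1 the count stayed at 3 lower and 1 higher.

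The other 4 subunits differed by less. TCP1, the alpha subunit, had 445, 433 and 427 CPM in control cells, against 421, 417 and 415 CPM in PELP1-KD cells, without overlap, at a log2FC of -0.06 (95% interval -0.12 to 0.0028, adjusted p = 0.109). CCT3, the gamma subunit, had 871, 875 and 862 CPM against 851, 849 and 855 CPM, also without overlap, at -0.03 (95% interval -0.08 to 0.02, adjusted p = 0.337). For both genes each PELP1-KD replicate was thus below each control replicate, although neither passed the adjusted threshold. CCT5, the epsilon subunit, had 1239, 1181 and 1176 CPM against 1177, 1155 and 1192 CPM, and its groups overlapped, at -0.03 (95% interval -0.08 to 0.03, adjusted p = 0.387). CCT8, the theta subunit, had 511, 485 and 498 CPM against 513, 504 and 518 CPM, with overlap, at 0.04 (95% interval -0.02 to 0.10, adjusted p = 0.281). These intervals leave room for changes of up to about the size seen in CCT4 and CCT2. Of the 8 subunits, 5 were lower and 1 was higher with groups that did not overlap, and 55% of all tested genes had such groups in either direction and 28% had them as a fall. CCT3 and CCT5 changed sign with library totals, to a log2FC of 0.02 each, and CCT8 passed the test there, at 0.09 (adjusted p = 0.0134).

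**Figure D2:**
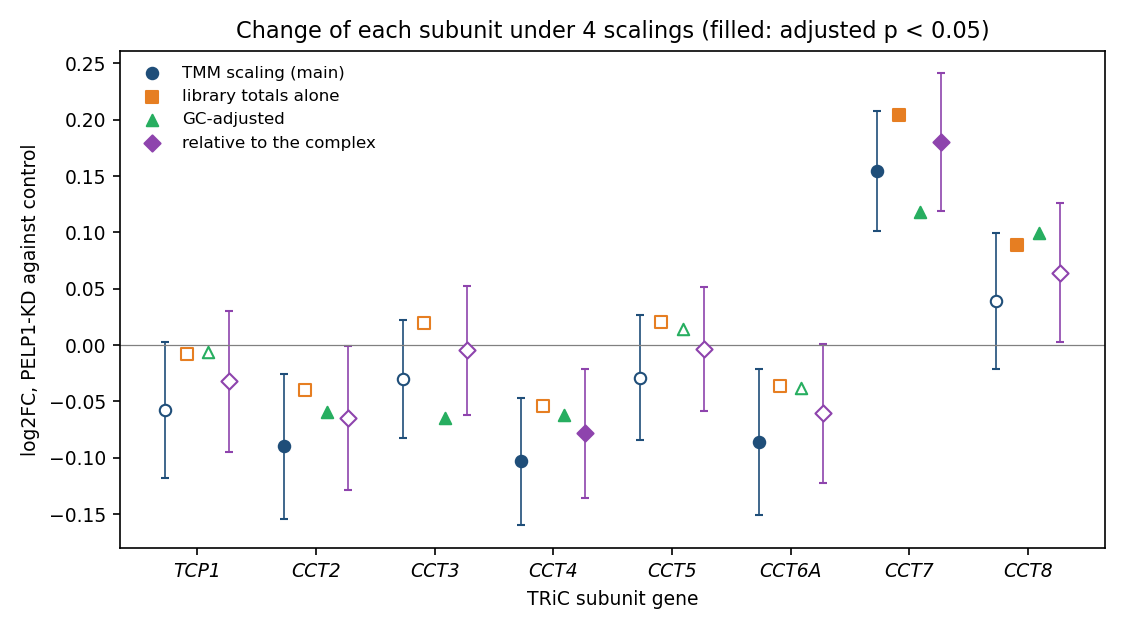
The log2FC of each subunit (y axis, PELP1-KD against control) under 4 scalings, with filled symbols for an adjusted p-value below 0.05 and bars for the 95% interval of the main fit and of the fit relative to the complex (n = 3 per group). CCT7 is filled and above 0 under each of the 4 scalings, while CCT4, CCT2 and CCT6A are below 0 in each and filled in only some.

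To ask about the balance within the ring rather than about the library, the libraries were rescaled so that the geometric mean of the 8 subunits was equal in all of them, and all genes were tested again. In this fit CCT7 was higher than the complex as a whole, at a log2FC of 0.18 (SE 0.029, edgeR adjusted p = 6.26e-05), and CCT4 was lower, at -0.08 (SE 0.027, adjusted p = 0.0252). The geometric mean includes CCT7, so its rise by itself makes the values of the other subunits lower in this fit. The other 6 lay between -0.06 and 0.06 and did not pass, and in the same fit 46% of all tested genes did. CCT7 passed under all 10 alternatives of this fit, between 0.12 and 0.19. CCT4 lost its call without control replicate 2 (adjusted p = 0.0855), control replicate 3 (0.0895), PELP1-KD replicate 1 (0.0643) or PELP1-KD replicate 3 (0.0515), at values between -0.08 and -0.07. These values lay near that of the full fit, and a fit with a replicate left out has less power.

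The same shift can be read as a composition. Of the summed CPM of the 8 subunits, CCT7 made up 13.75%, 14.2% and 13.96% in control cells, against 15.6%, 16.2% and 15.5% in PELP1-KD cells. CCT4 made up 13.8% ± 0.12 (SD, n = 3) in control cells and 13.0% ± 0.17 (SD, n = 3) in PELP1-KD cells. The share of CCT8 was also higher without overlap, at 8.46% ± 0.17 in control cells and 8.82% ± 0.016 in PELP1-KD cells. Those of CCT6A (12.71%, 12.31% and 12.53%, against 12.1%, 11.6% and 12.17%), CCT2 (8.73% ± 0.2 and 8.32% ± 0.18) and TCP1 (7.39% ± 0.053 and 7.2% ± 0.12) were lower without overlap. The shares add up to the whole, so a larger share of CCT7 by itself makes the others smaller. In the fit relative to the complex, TCP1 was at -0.03 (edgeR adjusted p = 0.398). CCT5, the largest part by reads, was at 20.4% ± 0.33 and 20.2% ± 0.079, and CCT3 at 14.8% ± 0.18 and 14.7% ± 0.17, both with overlap (SD, n = 3). The ratio of CCT7 to each of the other 7 subunits was higher in every PELP1-KD replicate than in any control replicate, in 7 of 7 ratios. These ratios share CCT7 and are not separate observations. As CCT7 was higher without overlap, its ratios to the 5 subunits that were lower without overlap could not have come out otherwise. In the ratio of CCT7 to CCT4 the means were 1.01 ± 0.012 in control cells and 1.21 ± 0.048 in PELP1-KD cells (SD, n = 3). Summed over the 8 subunits, expression was 5884 CPM ± 82.4 in control cells and 5802 CPM ± 81.5 in PELP1-KD cells (SD, n = 3). That difference of -1.39% was about the size of the spread between replicates (two-sided exact permutation test, p = 0.4). Without TMM the direction turned, as the subunits held 0.584%, 0.577% and 0.573% of the reads on genes in control cells, against 0.593%, 0.581% and 0.596% in PELP1-KD cells, with overlap. In bulk counts, fewer cells that express a gene and less of its RNA per cell cannot be told apart.

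Between replicates of a group the subunits deviated in small steps. In PELP1-KD replicate 2, 7 of the 8 subunits were below their group mean, those 7 by 0.032 on average on the log2 scale, and CCT7 was above. In control replicate 3, 7 of the 8 were below as well, those 7 by 0.019 on average. In control replicate 1 and in PELP1-KD replicates 1 and 3, 6 of the 8 were above. Over all subunits and replicates these deviations ran from -0.066 to 0.049, and the median size of the deviation over all tested genes was between 0.038 and 0.061.

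Levels of different subunits can be compared only per length. Per kilobase of all annotated exons (RPKM), the order in control cells was CCT4 at 286, CCT7 at 229, CCT3 at 216, CCT5 at 205, CCT6A at 189, CCT8 at 149, CCT2 at 119 and TCP1 at 88.2, with SDs between 1.61 and 6.06 (n = 3). The order was the same in PELP1-KD cells, where CCT4 stood at 267 ± 7.25 and CCT7 at 255 ± 3.0 (SD, n = 3). CCT3 was above CCT5 within each of the 6 libraries, although their ranges over the libraries overlapped, and CCT4 in its lowest library, at 258.4, was barely above CCT7 in its highest, at 258.2. With the length of the longest coding transcript in place of all exons, CCT7 and CCT3 came first in control cells, at 405 ± 5.18 and 404 ± 3.18, followed by CCT5 at 326 ± 9.63 and CCT4 at 322 ± 1.81 (SD, n = 3). By this length CCT7 was above CCT3 in 4 of the 6 libraries, CCT5 was above CCT4 in 5 of 6, and CCT2 and TCP1 were again the lowest. The order at the top thus depends on the length used, and that at the bottom did not.

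**Figure D3:**
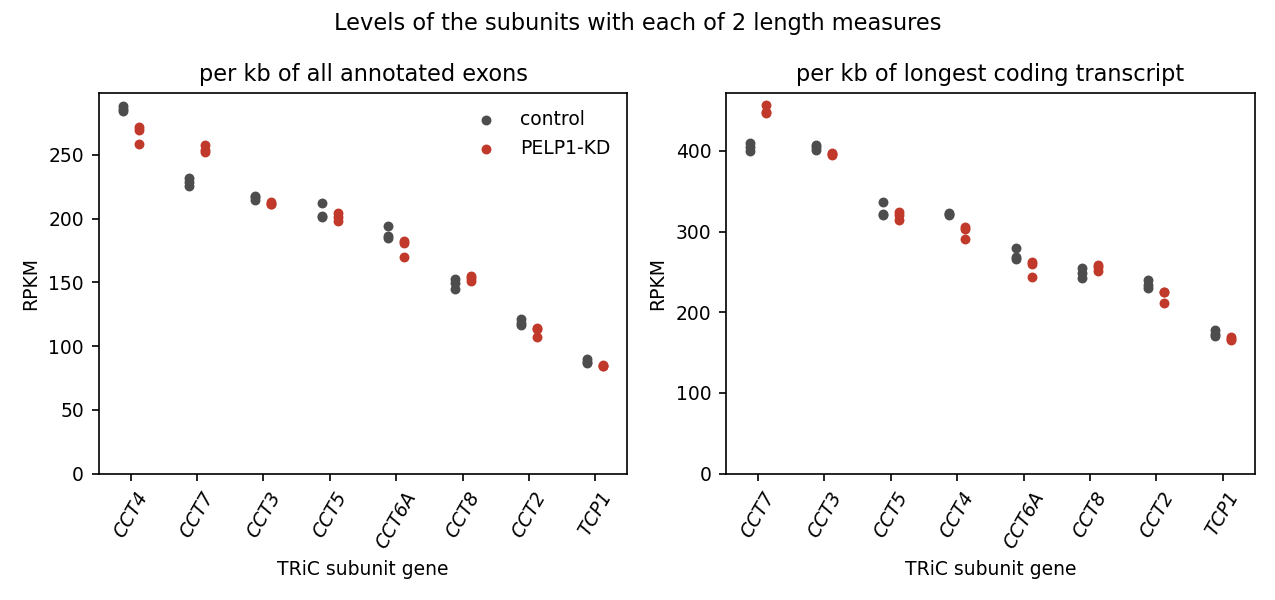
RPKM of each subunit (y axis, from 0) in the 3 control (grey) and 3 PELP1-KD (red) replicates, ordered by the control mean, with length taken as all annotated exons (left) or as the longest coding transcript (right). TCP1 and CCT2 are lowest in both panels, and CCT4 is first on the left and below CCT7, CCT3 and CCT5 on the right.

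The 8 genes lie apart in the genome. On GRCh38, in GENCODE release 29, TCP1 lies on chromosome 6 (159778498 to 159789749), CCT2 on chromosome 12 (69585334 to 69601570), CCT3 on chromosome 1 (156308968 to 156367873) and CCT5 on chromosome 5 (10249921 to 10266412). CCT6A lies on chromosome 7 (56051630 to 56063989) and CCT8 on chromosome 21 (29055805 to 29073797). CCT4 (61868089 to 61888804) and CCT7 (73233420 to 73253021), the subunits that moved farthest from each other, are both on chromosome 2. The counts were made on hg19, so these positions place the genes but were not used for counting.

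Sequence features bear on how well each subunit was counted. Reads with more than one alignment were counted on no gene, and 8.59% of the stretches of 50 bases in the longest coding transcript of CCT8 also occur elsewhere, in the processed pseudogene CCT8P1. The share was 7.8% for TCP1, 6.67% for CCT6A and 2.73% for CCT5, and it was 0 for CCT2, CCT3, CCT4 and CCT7. Only exact matches to annotated transcripts were searched, and near matches were not. By name, GENCODE has 2 pseudogenes each for CCT4 and CCT7, and 0 for CCT2 and CCT3. The pseudogenes CCT6P1 and CCT6P3, which are listed in the count tables, had 2.36 and 1.09 CPM in control cells, against 736 CPM for CCT6A. TCP1 shares 397 exon bases with ACAT2 and CCT4 shares 81 with COMMD1, on opposite strands. Likewise, CCT5 shares 1757 with the antisense gene AC012640.4 and CCT4 shares 275 with the antisense gene AC107081.2, neither of which is in the count tables. Whether reads were counted by strand is not given in the sources used here. On its own strand TCP1 shares 140 exon bases with SNORA29 and 12 with SNORA20, small RNA genes that are also in the count tables. The G+C content of the transcript was 51.3% for CCT7 and 51.2% for CCT3, and between 43.1% and 45.9% for the other 6, where the median of the tested genes was 48.5%. Across the 12379 tested genes with a value, the log2FC rose with G+C content (Spearman's rho 0.345, across genes, which are not independent replicates). After each library was adjusted for this trend, an alternative chosen after seeing the data, CCT7 was at 0.12 (adjusted p = 6.86e-06), CCT8 at 0.10 (adjusted p = 2.41e-04), CCT3 at -0.06 (adjusted p = 0.00681), CCT4 at -0.06 (adjusted p = 0.0107) and CCT2 at -0.06 (adjusted p = 0.0347), all by edgeR. The rise of CCT7 thus stayed past the threshold, CCT8 and CCT3 newly passed it, and CCT6A no longer did.

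By GENCODE, 6 of the subunit genes have a gene on the opposite strand whose start lies within 1 kb. For CCT7 it is PRADC1, 182 bases away, which encodes a secreted protein. The distance is from the GENCODE start, and the RefSeq start on which the CCT7 window above is set lies 888 bases downstream of it, 1070 bases from PRADC1. PRADC1 had 19.1, 22.4 and 19.1 CPM in control cells, against 28.2, 26.7 and 28.0 CPM in PELP1-KD cells, at a log2FC of 0.44 (SE 0.073, edgeR adjusted p = 4.58e-05). Both genes of this pair were thus higher without overlap. Among all tested genes 55% had groups without overlap in either direction, and 28% had them as a fall. For CCT4 it is COMMD1, 80 bases away, a regulator of NF-κB and of copper handling, with 15.5, 17.1 and 21.5 CPM in control cells, against 22.3, 25.1 and 22.9 CPM in PELP1-KD cells. COMMD1 rose by a log2FC of 0.38 (SE 0.092, adjusted p = 0.00194) where CCT4 fell. For CCT6A it is PSPH, 26 bases away, an enzyme of serine synthesis, which rose by 0.17 (SE 0.054, adjusted p = 0.013) and lost its call without control replicate 2 (0.16, adjusted p = 0.0565) or PELP1-KD replicate 2 (0.15, adjusted p = 0.0514). MRPL18, a mitochondrial ribosomal protein gene 63 bases from the start of TCP1, was at 0.04 (adjusted p = 0.514). FAM173B, 24 bases from the GENCODE start of CCT5 and 640 from its RefSeq start, was at -0.19 (adjusted p = 0.0678), and passed without control replicate 2 (-0.26, adjusted p = 0.0235), without control replicate 3 (-0.25, adjusted p = 0.0249) or without the filter on low counts (-0.19, adjusted p = 0.018). Without control replicate 1 it was at -0.06 (adjusted p = 0.525) and after adjustment for GC content at -0.08 (adjusted p = 0.305). The microRNA gene MIR3913-1 beside CCT2 had 0 counts in each library.

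Around the ring, the partners, the clients and the relatives of the subunits moved in both directions. Over 8 lists of 71 such genes, of which 68 were tested, 23 were lower (33.8%) and 13 were higher (19.1%), beside 24.2% and 22.7% of all tested genes. With library totals alone, these were 15 lower and 21 higher, and without PELP1-KD replicate 2, 8 were higher.

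Prefoldin hands newly made actin and tubulin to TRiC. Of its 6 subunits, 3 were lower, 1 was higher and 2 did not pass, beside 24.2% lower and 22.7% higher among all tested genes, with a median log2FC of -0.06. VBP1, one of its alpha-class subunits, had 107, 104 and 103 CPM in control cells, against 86.7, 75.4 and 83.7 CPM in PELP1-KD cells, a log2FC of -0.35 (SE 0.049, edgeR adjusted p = 5.29e-06). PFDN2, a beta-class subunit, rose from 138, 140.1 and 142 CPM to 153, 161 and 156 CPM, a log2FC of 0.17 (SE 0.037, adjusted p = 8.70e-04). After adjustment for GC content VBP1 was at -0.21 (adjusted p = 7.11e-06). PFDN4 was lower, at -0.17 (adjusted p = 0.0128), and lost its call without PELP1-KD replicate 2 (-0.12, adjusted p = 0.0763) and with library totals (-0.12, adjusted p = 0.065). PFDN4 turned to 0.01 after adjustment for GC content. PFDN5, at -0.11 (adjusted p = 0.0205), lost its call without control replicate 2 (-0.10, adjusted p = 0.0777), control replicate 3 (-0.09, adjusted p = 0.0903) or PELP1-KD replicate 1 (-0.11, adjusted p = 0.0517), and with library totals (-0.06, adjusted p = 0.192).

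The phosducin-like proteins bind TRiC and act on the folding of its clients. Of 4 such genes, 3 were tested and 2 were lower, beside 24.2% lower and 22.7% higher among all tested genes, and PDCL did not pass, at -0.13 (adjusted p = 0.0800). TXNDC9 had 92.1, 89.6 and 83.6 CPM in control cells, against 70.6, 62.8 and 71.4 CPM in PELP1-KD cells, a log2FC of -0.37 (SE 0.053, edgeR adjusted p = 8.17e-06). PDCL3 was at -0.24 (adjusted p = 0.0111) and lost its call without control replicate 3 (-0.19, adjusted p = 0.0665). PDCL2 was not tested for lack of counts. Of the 8 genes of the prefoldin-like URI complex and its R2TP partners, which assemble RNA polymerases and other complexes, RPAP3 was lower, at -0.33 (SE 0.056, adjusted p = 6.73e-05), PDRG1 was higher, at 0.19 (SE 0.053, adjusted p = 0.00654), and 6 did not pass. Among all tested genes 24.2% were lower and 22.7% higher, and with library totals 1 of these 8 was lower and 3 were higher. After adjustment for GC content RPAP3 was at -0.15 (adjusted p = 0.00645).

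Among relatives of the subunits, CCT6B, the testis form of CCT6A, had between 5 and 14 counts in each library and a log2FC of -0.17 (95% interval -1.01 to 0.68), and CCT8L2 had 0 counts in each library. BBS10, a chaperonin-like protein of the primary cilium, was lower, at -0.24 (adjusted p = 0.0219). It lost its call without control replicate 1 (-0.15, adjusted p = 0.0841), without PELP1-KD replicate 2 (-0.15, adjusted p = 0.135), with library totals (-0.19, adjusted p = 0.064) and after adjustment for GC content (-0.06, adjusted p = 0.399). The mitochondrial chaperonin did not pass the test, with HSPD1 at -0.06 (unadjusted p = 0.0497, adjusted p = 0.0933) and its lid HSPE1 at 0.03 (95% interval -0.07 to 0.13, adjusted p = 0.603).

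Hsp70 and Hsp90 chaperones pass clients to TRiC or fold others on their own, and of 10 genes of this system 6 were lower and 1 was higher, with a median log2FC of -0.09. Among all tested genes 24.2% were lower and 22.7% higher, and with library totals 4 of the 10 were lower and 2 higher. HSP90AA1, the inducible Hsp90, had 3784, 3621 and 3534 CPM in control cells, against 2890, 2759 and 2881 CPM in PELP1-KD cells, a log2FC of -0.36 (SE 0.026, edgeR adjusted p = 6.04e-10). The groups did not overlap, and this log2FC was farther from 0 than that of any TRiC subunit. HSPH1, an exchange factor of Hsp70, was lower at -0.23 (adjusted p = 8.52e-06), and HSPA8, the constitutive Hsp70, at -0.15 (adjusted p = 2.55e-05). After adjustment for GC content HSPH1 was at -0.12 (adjusted p = 5.97e-05), and with library totals HSPA8 was at -0.10 (adjusted p = 0.00106). HSF1, the heat shock transcription factor, was higher at 0.13 (adjusted p = 0.0285). That call was lost without control replicate 1 (0.09, adjusted p = 0.0793), control replicate 3 (0.12, adjusted p = 0.0655), PELP1-KD replicate 1 (0.13, adjusted p = 0.0564) or PELP1-KD replicate 2 (0.08, adjusted p = 0.17), and HSF1 was at 0.0040 after adjustment for GC content.

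Among the clients, 16 of 17 genes for actin, actin-related proteins and tubulin were tested, and 5 were lower and 6 higher, beside 24.2% lower and 22.7% higher among all tested genes. Their log2FC ran from -0.88 to 0.93. TUBA4A, an alpha-tubulin, rose from 89.997, 95.8 and 93.7 CPM to 178, 182 and 173 CPM, a log2FC of 0.93 (SE 0.040, edgeR adjusted p = 1.45e-13). TUBB3, a beta-tubulin best known from neurons, fell from 100.2, 105 and 108 CPM to 58.3, 59.0 and 53.8 CPM, a log2FC of -0.88 (SE 0.049, adjusted p = 9.72e-12). The alpha-tubulins with more reads, TUBA1B and TUBA1C, were lower at -0.14 each (adjusted p-values 1.60e-04 and 2.61e-04). ACTB, cytoplasmic beta-actin, rose from 4255 CPM ± 141 to 4883 CPM ± 147 (SD, n = 3), a log2FC of 0.20 (adjusted p = 2.48e-06), and TUBG1, gamma-tubulin, was higher at 0.16 (adjusted p = 0.00125). After adjustment for GC content ACTB was at 0.13 (adjusted p = 9.71e-08) and TUBG1 at 0.08 (adjusted p = 0.0265), and with library totals TUBA1B and TUBA1C were at -0.09 each (adjusted p = 0.00719 and 0.00871). Actin and tubulin genes have close paralogs and pseudogenes, so their counts are uncertain. TUBB4A was not tested for lack of counts.

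The tubulin cofactors take tubulin onward from TRiC, and of 5 genes 1 was lower and 2 were higher, beside 24.2% lower and 22.7% higher among all tested genes. Library totals left TBCE without a call (-0.10, adjusted p = 0.118). TBCA was at 0.18 (adjusted p = 0.00567) and lost its call without PELP1-KD replicate 3 (0.14, adjusted p = 0.061). TBCE was at -0.15 (adjusted p = 0.0222) and TBCC at 0.13 (adjusted p = 0.0331), and each of these lost its call when some replicates were left out. TBCE did so without control replicate 2 (-0.16, adjusted p = 0.0506), control replicate 3 (-0.14, adjusted p = 0.0639) or PELP1-KD replicate 1 (-0.10, adjusted p = 0.127). TBCC did so without control replicate 1 (0.12, adjusted p = 0.0561), control replicate 2 (0.13, adjusted p = 0.0913), PELP1-KD replicate 2 (0.10, adjusted p = 0.15) or PELP1-KD replicate 3 (0.14, adjusted p = 0.0665). TBCC also lost its call in DESeq2 (0.14, adjusted p = 0.0625) and after adjustment for GC content (0.08, adjusted p = 0.133), which took TBCA to 0.40 (adjusted p = 7.31e-08). Of 14 other clients, 4 were lower and 2 were higher, beside 24.2% lower and 22.7% higher among all tested genes, and with library totals 3 were lower and 7 higher. CDC20, which activates the anaphase-promoting complex, had 269.5, 277 and 276 CPM in control cells, against 212, 225 and 213 CPM in PELP1-KD cells, a log2FC of -0.34 (SE 0.034, edgeR adjusted p = 6.00e-08). The G-protein beta subunits GNB4 and GNB1, whose propeller fold is formed on TRiC, were lower at -0.34 (adjusted p = 2.08e-06) and -0.22 (adjusted p = 1.78e-06), and GNB4 was at -0.21 after adjustment for GC content (adjusted p = 1.79e-07). STAT3 was higher at 0.16 (adjusted p = 8.49e-04). WRAP53, which guides telomerase, was higher at 0.16 (adjusted p = 0.023), and lost its call without PELP1-KD replicate 2 (0.10, adjusted p = 0.157) or PELP1-KD replicate 3 (0.16, adjusted p = 0.0627) and after adjustment for GC content (0.10, adjusted p = 0.0697).

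**Figure D4:**
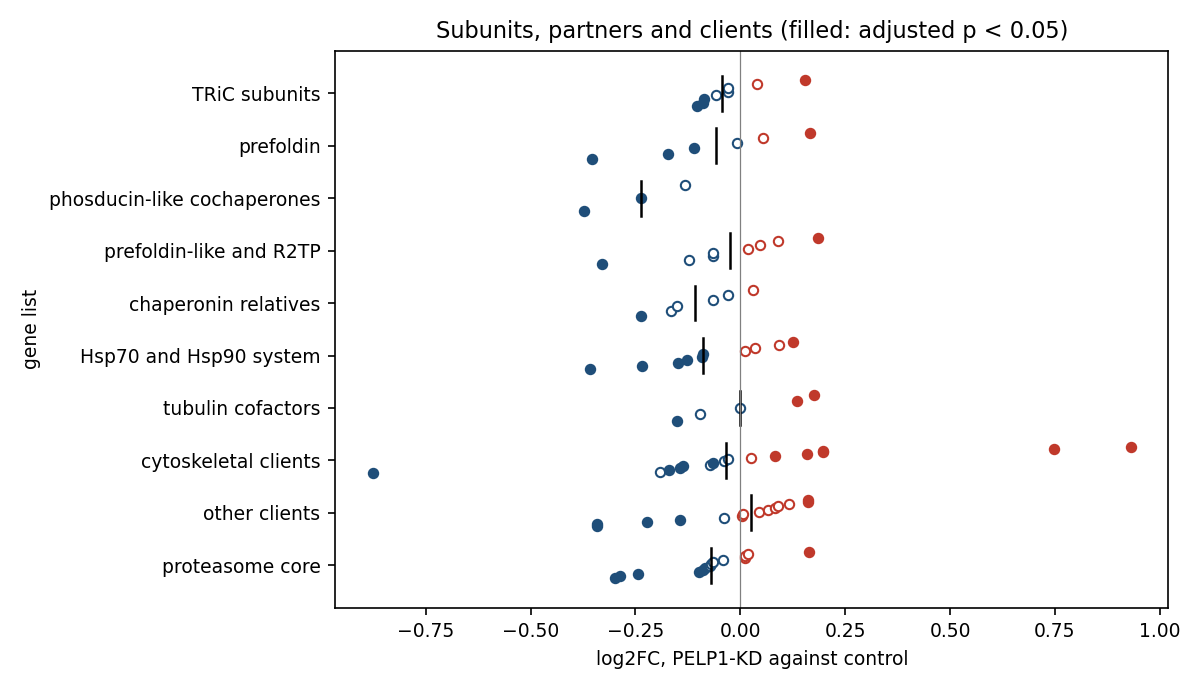
The log2FC (x axis, PELP1-KD against control) of each tested gene of the TRiC subunits, their partners, their clients and the proteasome core (y axis, 1 row per list, points spread in height only for view), with filled points for an adjusted p-value below 0.05, blue for lower, red for higher, and a black line for the median of the list. The subunits lie between -0.10 and 0.15, and the actin and tubulin genes reach from -0.88 to 0.93.

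The core of the proteasome, a barrel of stacked rings that degrades proteins and is likewise built from different subunits, was taken as a complex of like design. Of its 14 tested genes 6 were lower and 1 was higher, with a median log2FC of -0.07. The SD of the log2FC over the genes was 0.126 there, 0.183 over the 6 prefoldin genes and 0.0857 over the 8 TRiC genes, which are values without a test of their difference. PSMA1, PSMB2 and PSMA6 were lower at -0.30, -0.29 and -0.24 (adjusted p-values 6.46e-07, 5.66e-07 and 9.17e-06 by edgeR). PSMB5, a catalytic subunit, was higher at 0.16 (adjusted p = 2.70e-04). These counts stand beside 24.2% lower and 22.7% higher among all tested genes. With library totals they were 3 lower and 1 higher in the proteasome core, 1 and 1 in prefoldin, and 0 and 2 in TRiC.

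Over the 6 libraries, the genes whose log2 CPM followed the mean of the centred subunits most closely were KCTD3, ABCE1 (a ribosome recycling factor), ARNTL (a circadian clock factor), INTS7 (an Integrator subunit) and BCAT1 (a branched-chain amino acid transaminase), with Pearson's r between 0.987 and 0.995 over 6 libraries. The points share the libraries of the subunits, and the 5 genes were chosen for this likeness. They had a log2FC between -0.23 and -0.06, and none of the 5 passed the test (adjusted p-values 0.0951 to 0.268).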

How the data were processed

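RNA-seq was done on 3 control and 3 PELP1-KD replicates of MDA-MB-231. The authors deposited raw counts of reads of 50 bases for each gene symbol, 1 table per replicate. The submitters' processing notes name bcl2fastq, TopHat2, SAMtools, HTSeq and hg19, without versions. The annotation and the strand setting are not given in the sources used here. Entries with more than one alignment (32.5% to 32.9% of all entries per library), outside genes (7.64% to 8.20%) or on more than one gene (0.657% to 0.688%) were counted on no gene and stayed out of library sizes.

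Counts were analysed in R 4.3.3. Genes passing filterByExpr (minimum 10 counts) were scaled by TMM and tested by the quasi-likelihood test of edgeR 4.0.16, with p-values adjusted by Benjamini-Hochberg. Each SE is the size of the log2FC over the root of its F. Alternatives were DESeq2, a tool the study also used, run here in version 1.42.0, and voom in limma 3.58.1. A floor of 3 counts covers counting error only, as no molecular identifiers are described. Of the 23228 symbols, 21695 (93.4%) were matched to GENCODE for length and G+C content, and URI1, TUBB4A and TUBB4B were found under older symbols. The fits were tested on simulated data, where 61 of 100 genes changed by a log2FC of 0.2 were recovered, and 100 of 100 changed by 0.5. No smaller change was simulated. In the main fit every subunit changed by less than 0.2, so recovery at the size of their changes was not measured. Alternatives were RLE factors, library totals, other filters, leaving out a replicate, the replicate block and, chosen after seeing the data, GC-adjusted offsets (lowess, span 0.3).

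The subunits and gene lists were chosen with earlier results of these data known. Named genes are the subunits, PELP1, and the up to 3 called genes of lowest p per direction and untested members in each list. HSPD1, HSPE1, PDCL, CCT6B, marker genes of the cell line, genes starting within 1 kb on the opposite strand and the 5 most alike are also named. So are genes that share sequence or exons with a subunit. PELP1 was also tested by exact permutation. Proteomic and tumor data were not analysed here.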

Additional observations from a re-analysis of the deposited data

Results flagged for a closer look

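Outside the counts on genes, the totals that close the tables differed between the groups. The share of entries outside annotated genes was 8.06% ± 0.154 in PELP1-KD cells and 7.75% ± 0.103 in control cells (SD, n = 3). Its lowest PELP1-KD replicate, at 7.89%, was above its highest control replicate, at 7.82%. The share of entries on more than one gene was 0.684% ± 0.0034 in PELP1-KD cells and 0.660% ± 0.00396 in control cells (SD, n = 3), again without overlap. The share of entries with more than one alignment went the other way, at 32.71%, 32.89% and 32.93% in control cells, against 32.46%, 32.57% and 32.58% in PELP1-KD cells, also without overlap. All of these shares are taken of the same total of entries, so a fall in any of them by itself raises the others. These entries are in no subunit's count, and their part in the changes of the subunits was not tested.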

How the results depend on the processing

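The rise of CCT7 kept its direction and call under all 14 alternatives of the main fit and all 10 of the fit relative to the complex, and PELP1 did under all 14. The fall of CCT4 kept its call under 13 of the 14, all but library totals. With library totals alone, the subunits called lower went from 3 to 0 and those higher from 1 to 2. Under the same scaling, the partner, client and relative genes went from 23 lower and 13 higher to 15 and 21. This scaling moved the median log2FC of all tested genes from 0.0014 to 0.051. When single replicates were left out, from 1 to 3 subunits were lower, 1 was higher and between 1 and 3 differed from the complex. From 18 to 22 partner, client and relative genes were then lower and between 8 and 11 higher. Such fits have fewer samples, so a call can be lost there with little change in the log2FC. With GC-adjusted offsets, chosen after seeing the data, 2 subunits were higher and 5 differed from the complex. Values of single genes that changed sign were CCT3 (0.019) and CCT5 (0.021) with library totals, and CCT5 (0.014) and PFDN4 (0.012) with GC adjustment. Relative to the complex, CCT5 did so with GC adjustment (0.014) and without control replicate 1 (0.010) or PELP1-KD replicate 1 (1.3e-05). Its range over single replicates left out was -0.012 to 0.010. CCT3 relative to the complex did so without control replicate 2 (0.0023) or PELP1-KD replicate 1 (0.0011), in a range of -0.015 to 0.0023. With library totals the median log2FC of the subunits also changed sign, to 0.0058. The cause of these changes was not tested. Same-numbered replicates deviated from their group means with correlations of 0.0388, 0.0653 and -0.0784, so the numbers are not taken as a pairing. With the replicate number as a block, 3 subunits were lower and 1 higher, and 2 differed from the complex. The same block gave 25 partner, client and relative genes lower and 15 higher. Of all genes, 3335 were lower and 3140 higher with it, and HSPD1 (adjusted p = 0.0419) and FAM173B (0.0224) were newly called.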
